A study of Rattus norvegicus with 5 samples.

Results

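The lysosomal genes described here are 56 genes in 5 classes: 12 cathepsins and legumain, 19 other hydrolases and their activator proteins, 8 proteins of the lysosomal membrane, 5 regulators and sorting receptors, and 12 subunits of the V-ATPase, the proton pump that acidifies the lysosome. They were listed by gene symbol, with earlier results of these data known, and were found on the arrays through the RefSeq accession of each probe. A probe was matched for 54 of them, among 15154 genes measured in all. No probe was matched for Naglu, an enzyme of heparan sulfate breakdown, or Atp6v0a4, a V-ATPase subunit of kidney and inner ear. Of the 54 genes, 48 gave a signal well above background in 3D, in 2D or in both, and Ctsc, Ctsk, Ctss, Galc, Cd68 and Atp6v0d2 did in neither.

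Lysosomes break down proteins, glycans and lipids with soluble hydrolases that work at acid pH. Most hydrolases are tagged with mannose 6-phosphate in the Golgi, carried to endosomes by receptors for that tag, and matured there as the V-ATPase lowers the pH. Many lysosomal genes carry an E-box in their promoter that is bound by TFEB and its relative MITF. In thyroid follicles, cathepsins release hormone from thyroglobulin, a step studied mostly in mouse.

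FRT cells are an epithelial line from the thyroid of the Fischer rat that forms polarized monolayers. The 3D cultures were follicle-like structures with a lumen, grown in Matrigel, a basement membrane extract, and were set against confluent 2D monolayers, both at day 5 and both of unmodified cells. RNA of each of 4 biological replicates in 3D was labelled with Cy5 and hybridized with Cy3-labelled RNA of 1 pool of 4 2D cultures. The remaining array, called the swapped array, held a 3D pool in Cy3 and the 2D pool in Cy5, and so adds no independent culture. The spread between 2D cultures was not measured, and the 5 signals given for 2D are repeats of 1 pool. Unless called signals, values are log2 ratios of 3D over 2D, so that a positive value means a higher signal in 3D, and the swapped array is given with its sign turned.

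The 5 arrays lay on 1 slide, and their number limits the precision. Ratios over all genes correlated at r = 0.871 to 0.946 between replicate arrays, and at 0.734 to 0.765 between the swapped array and the replicates. Of 10 follicular cell markers, 5 were above background on at least 1 array. Pax8 (0.71) and Duox2 (0.68) were higher in 3D, while Tg, Slc5a5, Tshr and Nkx2-1, which define differentiated thyrocytes, were above background on 0 arrays in either condition. All 8 epithelial markers were above background. Of 10 macrophage and leukocyte markers, 4 were on at least 1 array, and Ptprc, Itgam, Adgre1, Mrc1 and Cd3e were among those on none. Cd14 was above background on all 5 arrays in both conditions and did not pass (0.20), and Lyz2, above background on 1 array in 3D and 2 in 2D, was lower (-0.20). Of 3 osteoclast markers, Acp5 alone was above background (0.00). Of 8 fibroblast markers 4 were, and Pdgfra was higher in 3D (0.55). Fewer cells with a transcript and less of it per cell cannot be told apart in such RNA.

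In 3D, 11 of the 54 genes were higher and 13 were lower at a false discovery rate of 0.01 (limma, Benjamini-Hochberg over all genes), and 30 did not pass. The share that passed was 44.4%, against 25.9% of all genes, of which 14.4% were higher and 11.5% lower. Much of this margin went with signal strength. When genes without signal on at least 3 arrays were removed before the fit, 25 of 48 lysosomal genes passed, against 47.0% of the 8430 genes kept. The changes were small, with a median absolute log2 ratio of 0.18 over the 54 genes and 0.08 over all genes. The median signed ratio was -0.04, and was 0.00 over all genes. Only Lipa, Ctsh and Ctsl changed at least 2-fold in the values reported. The signal offset used compresses the ratios of dim genes, and with an offset of 0 Ctse had a ratio of 1.45. Of the 24 genes that passed, 23 had the same sign on all 5 arrays, and the exception was Psap. Over all genes, 3805 of the 3918 that passed did. The fit counts 5 arrays for 4 cultures, since the swapped array is no new culture, and its errors and p-values rest on that count. With the 4 replicate arrays alone 31 genes passed, among them 23 of the 24, and Psap was lost. Leaving out replicate 2 or replicate 4 reduced the 13 lower genes to 8 in each case.

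**Figure D1:**
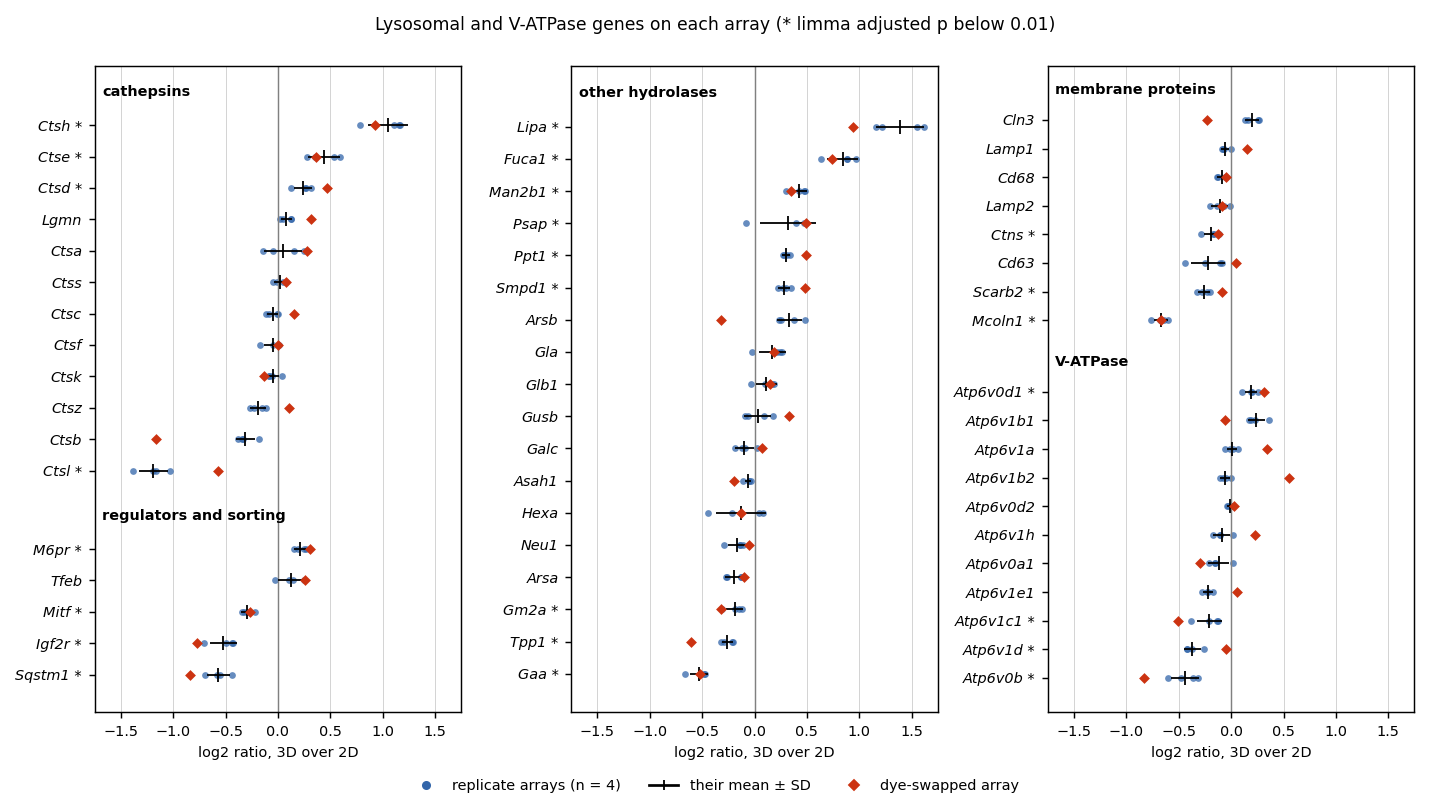
Log2 ratio of 3D over 2D (x axis) for 54 lysosomal and V-ATPase genes (rows, by class) on the 4 replicate arrays (blue points, with mean and SD in black) and on the dye-swapped array (red diamonds). Lipa lies between 0.94 and 1.62 and Ctsh between 0.78 and 1.17, Ctsl lies below -0.5 on all, and most others lie within 0.5 of 0. Of the starred genes on the left of 0, 8 changed sign when arrays were only centred on their median. That setting raised the ratios of bright genes.

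The direction of 8 of the 13 decreases depended on the normalization. When each array was only centred on its median and not normalized by loess, which leaves in place any trend of the ratio with signal, 0 of the 54 genes and 7 of all 15154 passed. At an unadjusted p under 0.05 (limma), 15 of the 54 were then higher and 1 was lower, while 3093 of all 15154 genes reached it in either direction. Under that setting 8 of the 13 lower genes had a value at or above 0, namely Gaa, Gm2a, Tpp1, Scarb2, Mitf, Atp6v0b, Atp6v1c1 and Atp6v1d. The 11 higher genes and Ctsl, Mcoln1, Sqstm1, Igf2r and Ctns kept their sign. Median centring raised the ratios of bright genes, among them Lamp1 (-0.02 to 0.44), Asah1 (-0.09 to 0.44) and Fuca1 (0.82 to 1.27). Ctsc, not above background, went from -0.01 to -0.22. An increase of a bright gene therefore could not turn, while a decrease of one could if it was small enough. Ctns, a dim gene, went from -0.17 to -0.24. The asymmetry is thus no measure of how firm the increases are. Under the other 15 alternatives, 13 of the 24 genes passed every time, in the same direction. These were Ctse, Ctsh, Ctsl, Lipa, Gaa, Man2b1, Fuca1, Ppt1, Mcoln1, Mitf, Sqstm1, Igf2r and Atp6v0b.

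The promoters of these genes were read from a RefSeq table of the build GRCr8, from 250 bases before to 50 after a transcript start, for the sites TFEB is known to use. A promoter was listed for 44 of the 56 genes. The E-box CACGTG, searched on both strands, stood in 11 of them (25.0%), against 6.42% of all 33469 promoters and 7.88% of the 12384 that belong to measured genes. The longer palindrome TCACGTGA, which contains that E-box, stood in 7 (15.9%), against 0.777% of all promoters and 1.23% of those of measured genes. The palindrome is shown here in capitals within its neighbouring bases for those 7 genes, because they share the motif and differ in their ratio. Windows are read 5′ to 3′ on the strand of the gene.
Ctsd: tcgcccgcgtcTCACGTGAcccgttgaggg
Atp6v0d1: ccccattgtggTCACGTGAgatgcagtgcg
Cln3: cacgggtactgTCACGTGAtccccaacctg
Lamp1, first site: agaccctcggcTCACGTGAccggcgggcgc
Lamp1, second site: cgcggcactgtTCACGTGAcaggcgctgcc
Galc: gggtgccacagTCACGTGAcccgcacaatg
Igf2r, first site: gaacgagaacgTCACGTGAcaggaggcggg
Igf2r, second site: gccgactccggTCACGTGAcgctttgggga
Mcoln1: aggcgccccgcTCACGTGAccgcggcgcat
The windows lie at chr1:206968814-206968843 (Ctsd, minus strand), chr19:50357283-50357312 (Atp6v0d1, minus), chr1:190597950-190597979 (Cln3, minus), chr16:83075111-83075140 and chr16:83075084-83075113 (Lamp1, minus), chr6:123245562-123245591 (Galc, minus), chr1:50526741-50526770 and chr1:50526781-50526810 (Igf2r, plus) and chr12:6358250-6358279 (Mcoln1, plus). For Mcoln1, Cln3, Galc and Lamp1 the transcript start in the table lay 407, 2105, 6465 and 7780 bases inside the annotated gene, so these windows belong to an inner start.

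Of the 7 genes with the palindrome, Ctsd (0.29) and Atp6v0d1 (0.21) were higher in 3D, Igf2r (-0.57) and Mcoln1 (-0.67) were lower, and Cln3 (0.12), Lamp1 (-0.02) and Galc (-0.06, not above background) did not pass. The same motif therefore stood at genes of both directions. Across the 152 measured genes with the palindrome, 20 were higher and 35 lower (36.2% passed, against 25.9% of all genes), with a median of -0.01. Of these 35, 19 were at or above 0 under median centring. Among the 976 measured genes with the shorter E-box, 128 were higher and 194 lower (33.0% passed), and 98 of the 194 turned under median centring. These shares, like the 25.9%, include genes without signal. Of the 8430 genes kept after the filter for signal, 47.0% passed. Ctsd and Igf2r, of opposite direction, are printed over the 250 bases before their start, with each E-box in capitals, to show the spacing of the sites.
Ctsd, chr1:206968822-206969071, minus strand: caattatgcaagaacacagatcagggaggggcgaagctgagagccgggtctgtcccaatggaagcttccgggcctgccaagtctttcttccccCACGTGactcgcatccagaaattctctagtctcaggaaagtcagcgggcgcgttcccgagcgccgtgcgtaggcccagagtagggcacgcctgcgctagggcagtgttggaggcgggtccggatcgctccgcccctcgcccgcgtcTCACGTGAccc
Igf2r, chr1:50526628-50526877, plus strand: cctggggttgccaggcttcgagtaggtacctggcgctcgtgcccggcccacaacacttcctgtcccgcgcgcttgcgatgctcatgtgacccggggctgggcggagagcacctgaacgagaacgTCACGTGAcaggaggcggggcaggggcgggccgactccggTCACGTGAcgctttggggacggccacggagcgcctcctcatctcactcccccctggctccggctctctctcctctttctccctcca
In Ctsd a short E-box began 157 bases and the palindrome 11 bases before the start. In Igf2r the palindrome began 126 and 86 bases before it.

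**Figure D2:**
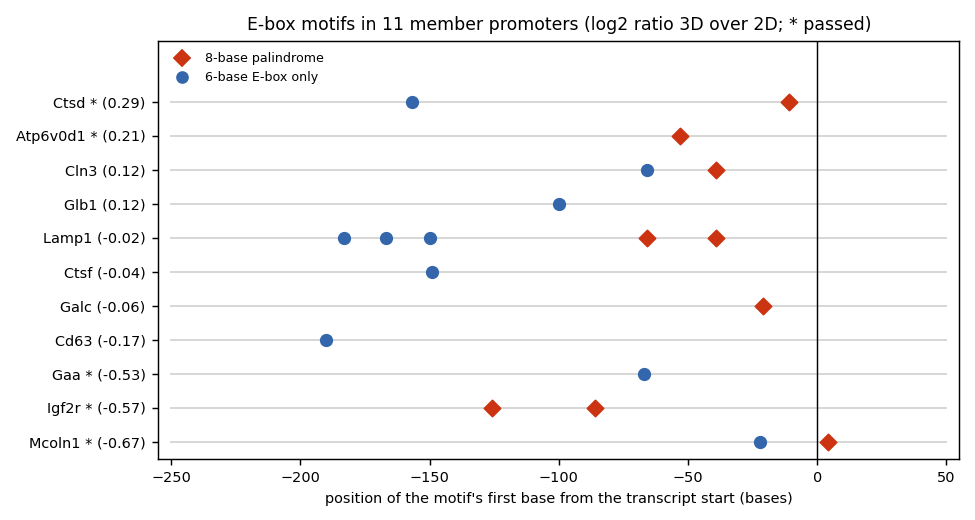
Position of each E-box relative to the transcript start (x axis, bases) in the 11 lysosomal gene promoters that hold one, with the long palindrome as red diamonds and the short E-box alone as blue points. Genes run from the highest to the lowest log2 ratio of 3D over 2D, given in brackets, with a star where the gene passed, and the palindrome appears from Ctsd (0.29) down to Mcoln1 (-0.67). The direction of Gaa was lost under median centring.

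Among the 12 cathepsins and legumain, Ctsh, Ctse and Ctsd were higher in 3D, Ctsl was lower, and 8 did not pass. The median ratio was 0.01. Ctsh encodes a cysteine protease that trims the amino end of its substrates. Its normalized log2 signals in 3D were 13.12, 13.52, 13.54 and 13.50 on replicates 1 to 4 and 13.32 with the dyes swapped, against 12.34, 12.35, 12.38, 12.39 and 12.39 in 2D. The 3D values lay above the 2D values on all 5 arrays without overlap. The 2D values are repeats of 1 pool, so a lack of overlap, here and below, holds no spread between 2D cultures. The ratio was 1.03 ± 0.06 (SE), or 2.04-fold (limma adjusted p = 1.78e-06), and ranked 172 from the top of all genes. Ctsl encodes a cysteine endopeptidase, and its signals in 3D were 12.19, 11.94, 12.16, 12.31 and 12.46, against 13.39, 13.32, 13.32, 13.34 and 13.03 in 2D. All 5 arrays were lower in 3D, with the smallest difference on the swapped array. The ratio was -1.07 ± 0.10 (SE; limma adjusted p = 2.21e-05), or 2.09-fold lower, and ranked 126 from the bottom.

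Ctsd encodes the main aspartic protease of the lysosome. Its ratios were 0.12, 0.27, 0.26 and 0.32 on replicates 1 to 4 and 0.47 with the dyes swapped. The gene was higher in 3D on each array by a small amount, with a ratio of 0.29 ± 0.05 (SE; limma adjusted p = 0.0019). For Ctse, an aspartic protease of endosomes, the ratios were 0.59, 0.54, 0.35 and 0.28, and 0.36 with the dyes swapped. Its probe was well above background in 3D on 5 arrays and in 2D on 0. The ratio of 0.42, or 1.34-fold (limma adjusted p = 0.000197), is thus an estimate against a 2D signal near background. It is compressed by the offset, and ranged from 0.38 to 2.61 over the 16 alternatives.

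In the papain family, to which Ctsh and Ctsl belong, 1 of 8 genes was higher, 1 lower and 6 did not pass. Ctsb, a cysteine protease abundant in thyroid cells, had ratios of -0.18, -0.33, -0.38 and -0.34 on replicates 1 to 4 and -1.16 with the dyes swapped. All 5 arrays were lower in 3D, yet the swapped array stood apart. With a ratio of -0.48 ± 0.12 (SE), Ctsb fell just outside the threshold (limma adjusted p = 0.0121). Of 16 alternatives, 4 moved it past the threshold. Its ratio was -0.31 over the 4 replicates alone (adjusted p = 0.000371), and with a term for the dye it was -0.73 (adjusted p = 4.8e-06). The dye term itself passed for Ctsb (0.42, adjusted p = 0.00341).

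Among the other papain family genes none passed. Ctsz, a carboxypeptidase, had ratios of -0.27, -0.11, -0.23 and -0.15 on replicates 1 to 4 and 0.11 with the dyes swapped. Ctsf, a less studied cysteine protease, had 0.00, -0.05, -0.17 and 0.01, and 0.00 on the swapped array. The ratios therefore kept close to 0 or changed sign between dyes. Ctsc, a dipeptidyl peptidase that activates granule proteases of immune cells, had -0.09, -0.11, 0.00 and -0.01, and 0.15 on the swapped array. Ctsk, the collagenase of osteoclasts, had -0.06, -0.09, -0.09 and 0.04, and -0.13. Ctss, which works in antigen-presenting cells, had 0.05, -0.01, -0.05 and 0.08, and 0.08. None of these 3 genes was well above background in either condition, and their ratios are no measure of a difference. Outside the family, legumain (Lgmn), which cleaves after asparagine, had a ratio of 0.13 (limma adjusted p = 0.0819), and Ctsa, which protects sialidase and galactosidase, had 0.10 (limma adjusted p = 0.314).

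The 18 other hydrolases measured split into 6 that were higher in 3D, 3 that were lower (above 0 with median centring) and 9 that did not pass, with a median ratio of 0.10. Lipa, the acid lipase that frees cholesterol and fatty acids from lipoproteins, had the largest increase of all 54 genes. Its normalized log2 signals in 3D were 11.40, 11.55, 11.97 and 11.95 on replicates 1 to 4 and 11.33 with the dyes swapped, against 10.24, 10.33, 10.35, 10.40 and 10.40 in 2D. The 3D signals lay above all repeats of the 2D pool, and replicates 3 and 4 were the highest. The ratio was 1.30 ± 0.09 (SE), or 2.46-fold (limma adjusted p = 4.63e-06), and ranked 91 from the top of all genes.

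A pair of enzymes of glycoprotein breakdown was also higher. Fuca1, which removes fucose, had signals of 14.09, 14.32, 14.41, 14.28 and 14.20 in 3D, against 13.46, 13.45, 13.44, 13.39 and 13.45 in 2D. Every 3D value lay above every 2D value, and the ratio was 0.82 ± 0.05 (SE), or 1.76-fold (limma adjusted p = 2.95e-06). Man2b1, the acid mannosidase, had ratios of 0.30, 0.42, 0.47 and 0.48, and 0.35 on the swapped array. Its ratio was 0.40 ± 0.04 (SE; limma adjusted p = 6.04e-05). Ppt1, which removes palmitate from proteins, had 0.31, 0.28, 0.27 and 0.34, and 0.49 on the swapped array, all above 0 (0.34 ± 0.05, SE; limma adjusted p = 0.00029). The remaining increases were those of Smpd1 and Psap. Smpd1, the acid sphingomyelinase, was higher on each array (0.32, limma adjusted p = 0.0005). Psap, the precursor of the saposin activators, had a ratio of 0.35 (limma adjusted p = 0.00719) that was below 0 on replicate 1 (-0.08). Its call held in 8 of 16 alternatives and was lost without the swapped array (adjusted p = 0.0143), without replicate 2 (0.0315), replicate 3 (0.035) or replicate 4 (0.0338), and with the deposited values (0.0155).

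The hydrolases that were lower in 3D all lost their direction with median centring. Gaa, the acid glucosidase that clears glycogen, had signals of 10.43, 10.62, 10.67, 10.65 and 10.43 in 3D, against 11.09, 11.10, 11.14, 11.15 and 10.95 in 2D. All 5 arrays were lower in 3D, with no overlap, and the ratio was -0.53 ± 0.04 (SE; limma adjusted p = 1.08e-05), while under median centring it was 0.01. Tpp1, a tripeptidyl peptidase, had ratios of -0.29, -0.32, -0.22 and -0.21, and -0.61 on the swapped array (-0.33 ± 0.06, SE; limma adjusted p = 0.00196), and 0.21 under median centring. Gm2a, the activator that lifts gangliosides for hexosaminidase, had -0.15, -0.19, -0.12 and -0.31, and -0.32 on the swapped array (-0.22 ± 0.05, SE; limma adjusted p = 0.00425), and 0.28 under median centring. Over the 5 arrays the decreases were 1.44-fold, 1.26-fold and 1.16-fold.

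The 9 hydrolases that did not pass ranged from -0.18 for Arsa, a sulfatase of sulfatide breakdown, to 0.20 for Arsb, a sulfatase of dermatan sulfate breakdown. Arsa lay just outside the threshold (limma adjusted p = 0.0107). Arsb was above 0 on the 4 replicate arrays (0.25, 0.23, 0.48 and 0.38) and below 0 on the swapped array (-0.32). The adjusted p of Arsb was 0.163 over the 5 arrays and 0.000471 without the swapped array. Hexa, Gusb and Glb1, which remove sugars from glycolipids and glycans, had replicate arrays on both sides of 0. These are values of the brightest probe. A further probe of Gusb was above 0 on all 5 arrays (0.14), and a further probe of Glb1 gave -0.01.

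**Figure D3:**
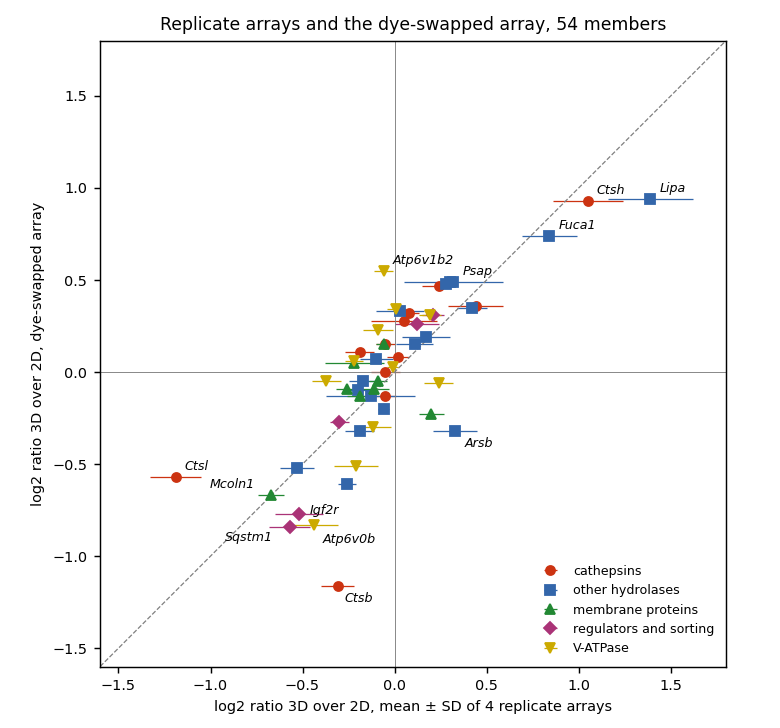
Mean log2 ratio of 3D over 2D on the 4 replicate arrays with its SD (x axis) against the ratio on the dye-swapped array (y axis) for the 54 genes, coloured by class, with equality dashed. Lipa, Ctsh and Fuca1 lie at the upper right and Ctsl and Ctsb at the lower left. Atp6v1b2 and Arsb lie on opposite sides of 0 in the 2 dye orientations, as do 12 of the 54 genes and 6543 of all 15154.

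Among the 8 membrane proteins, none was higher in 3D, Mcoln1, Scarb2 and Ctns were lower, and 5 did not pass, with a median of -0.13 that became 0.13 under median centring. At an unadjusted p under 0.05 (limma), 5 were lower and 0 higher. At that threshold 3376 of all 15154 genes were higher and 2736 lower. Of 19 further membrane proteins and transporters, described below, 6 were higher and 6 lower at it. A trend of the class was not tested, and 8 genes are few for one. Mcoln1 encodes the calcium channel mucolipin, through which lysosomal calcium is released. Its normalized log2 signals in 3D were 10.48, 10.60, 10.76 and 10.60 on replicates 1 to 4 and 10.61 with the dyes swapped, against 11.25, 11.29, 11.36, 11.23 and 11.29 in 2D. The 2D values exceeded the 3D values on all 5 arrays, and the arrays differed little among themselves. The ratio was -0.67 ± 0.04 (SE; limma adjusted p = 1.81e-06), or 1.59-fold lower, with the sign kept under median centring (-0.14). Its promoter holds the palindrome printed above, as does that of Ctsd, which was higher.

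Scarb2, the receptor that carries glucocerebrosidase to the lysosome, had ratios of -0.33, -0.28, -0.20 and -0.23, and -0.09 on the swapped array. Its ratio was -0.22 ± 0.05 (SE; limma adjusted p = 0.00354), and 0.12 under median centring. Ctns, the exporter of cystine, had -0.29, -0.17, -0.16 and -0.12, and -0.13. It was well above background in 3D on 0 arrays and in 2D on 3. Its ratio of -0.17, or 1.13-fold lower in 3D (limma adjusted p = 0.0093), is compressed by the offset. Over the 16 alternatives it ranged from -0.93 to -0.15. Of 16 alternatives, Scarb2 passed in 8 and Ctns in 10, and 1 of the 3 lower membrane genes remained when any 1 replicate was left out.

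Lamp1 and Lamp2, the most abundant glycoproteins of the lysosomal membrane, did not pass. Lamp1 had ratios of -0.09, -0.07, -0.08 and 0.00, and 0.15 on the swapped array. Lamp2 had -0.01, -0.20, -0.14 and -0.07, and -0.09. Their ratios over the 5 arrays were -0.02 ± 0.05 and -0.10 ± 0.04 (SE; limma adjusted p = 0.816 and 0.0978). Cd63, a tetraspanin of late endosomes (-0.17), and Cln3, a membrane protein mutated in a neuronal storage disease (0.12), changed sign between the dye orientations. Cd68, a membrane protein of macrophage lysosomes, was not well above background.

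Of the 5 regulators and sorting receptors, M6pr was higher, Sqstm1, Igf2r and Mitf were lower and Tfeb did not pass, with a median of -0.29 that became 0.08 under median centring. The receptors for mannose 6-phosphate moved in opposite directions. Igf2r, the large receptor that also takes up ligands at the cell surface, had signals in 3D of 12.11, 12.07, 12.24, 12.17 and 11.96, against 12.54, 12.77, 12.67, 12.67 and 12.73 in 2D. All 5 arrays were lower in 3D without overlap (-0.57 ± 0.06, SE; limma adjusted p = 5.48e-05), with -0.07 under median centring. M6pr, the small receptor, had ratios of 0.27, 0.25, 0.15 and 0.19, and 0.31 on the swapped array. It was higher on each array (0.23 ± 0.04, SE; limma adjusted p = 0.0016), and its other probe gave 0.21.

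Sqstm1 encodes the receptor that links ubiquitinated cargo to autophagosomes. Its signals in 3D were 13.18, 13.01, 13.22, 13.19 and 12.86, against 13.62, 13.71, 13.80, 13.74 and 13.70 in 2D. The 3D values lay below the 2D values throughout, with the largest gap on the swapped array (-0.62 ± 0.06, SE; limma adjusted p = 2.76e-05), or 1.54-fold lower, and -0.15 under median centring. A further probe of Sqstm1 gave -0.76. Of the transcription factors, Mitf was lower and Tfeb did not pass. Mitf had ratios of -0.22, -0.32, -0.30 and -0.34, and -0.27 on the swapped array (-0.29 ± 0.04, SE; limma adjusted p = 0.000288), but 0.08 under median centring. Of its further probes 1 gave -0.24, and the other, below background, gave -0.06. Tfeb had 0.11, -0.03, 0.14 and 0.25, and 0.26 on the swapped array (0.15 ± 0.05, SE; limma adjusted p = 0.0541).

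Among the 11 V-ATPase subunits measured, Atp6v0d1 was higher, Atp6v0b, Atp6v1d and Atp6v1c1 were lower (all 3 at or above 0 with median centring), and 7 did not pass, with a median of -0.03 that became 0.26 under median centring. Atp6v0b belongs to the proton-carrying ring of the membrane sector. Its signals in 3D were 11.08, 11.17, 11.35, 11.33 and 11.12, against 11.68, 11.65, 11.67, 11.69 and 11.95 in 2D. All arrays were lower in 3D, most of all the swapped array, and the ratio was -0.52 ± 0.07 (SE; limma adjusted p = 0.000324), with 0.00 under median centring. Of the stalk subunits of the catalytic sector, Atp6v1d and Atp6v1c1 were lower, and Atp6v1e1 (-0.17) and Atp6v1h (-0.03) did not pass. Outside the 56, Atp6v1f was lower (-0.37) and Atp6v1g1 higher (0.20). Atp6v1d had ratios of -0.42, -0.26, -0.42 and -0.37, and -0.05 on the swapped array (-0.30, limma adjusted p = 0.00285). Atp6v1c1, a regulatory subunit, had -0.38, -0.21, -0.14 and -0.13, and -0.51 (-0.27, limma adjusted p = 0.00679). Under median centring these genes stood at 0.22 and 0.20. Leaving out any 1 replicate left 1 of the 3 lower subunits.

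Several subunits exist as paralogs used in different tissues. Atp6v0d1, the common form of its subunit, had ratios of 0.10, 0.20, 0.26 and 0.19, and 0.31 on the swapped array (0.21 ± 0.04, SE; limma adjusted p = 0.0039). The call was lost without replicate 2, replicate 3 or replicate 4. Its paralog Atp6v0d2, the form of osteoclasts and kidney, had -0.04, 0.01, -0.03 and 0.01, and 0.03, and was well above background on 0 arrays. In this pair a signal was therefore measured for the common form alone. Atp6v1b2, the common form of another subunit, had -0.08, -0.11, -0.05 and 0.00 on the replicate arrays but 0.55 on the swapped array. Atp6v1b1, the form of acid-secreting epithelia, had 0.19, 0.36, 0.17 and 0.23, but -0.06 on the swapped array. Both had a signal above background on all arrays, and neither passed (limma adjusted p = 0.679 and 0.0399). Without the swapped array Atp6v1b1 had a ratio of 0.24 (adjusted p = 0.00158), and with a term for the dye Atp6v1b2 had one of 0.24 (adjusted p = 0.00164). Atp6v0a1, whose paralog Atp6v0a4 had no matched probe, had -0.15, -0.21, 0.02 and -0.15, and -0.30 (-0.16, limma adjusted p = 0.0363). The catalytic subunit Atp6v1a had a ratio of 0.07, and this gene, Atp6v1e1 and Atp6v1h each had a swapped array above 0.

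Genes of the same pathway outside these 56, in 7 lists, also moved in both directions. Between 31.2% and 57.9% of each list passed, against 25.9% of all genes and 47.0% of the 8430 genes kept after the filter for signal. Most genes of these lists had signal, so their counts are no sign of a change particular to the pathway. As among the members, many decreases turned under median centring and no increase did, in a setting that raised the ratios of bright genes. Of 20 further hydrolases and partners measured, 5 were higher, among them the peptidase Dpp7 (0.57) and the nuclease Rnaset2 (0.52), and 3 were lower, among them the cholesterol-binding Npc2 (-0.57) and the peptidase Prcp (-0.44). With median centring 1 of these 3 turned. Of 15 further V-ATPase subunits and assembly factors, 3 were higher, with Tcirg1 (0.40) and Atp6v0a2 (0.32), other forms of the subunit of Atp6v0a1, at the head. Another 3 were lower, with Rogdi (-0.43) and Atp6v1f (-0.37) at the head, and all 3 were above 0 with median centring (0.09 for Rogdi and 0.09 for Atp6v1f). Of 19 further membrane proteins, 6 were higher, including the lipid transporter Abca2 (0.93) and the tetraspanin Cd82 (0.60), and 5 were lower, including Tmem192 (-0.68) and the chloride exchanger Clcn7 (-0.51). Of these 5, 2 turned under median centring.

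Of 22 genes of mannose 6-phosphate tagging and lysosomal sorting, 5 were higher and 6 lower, of which 4 turned under median centring. The sorting receptors Sorl1 (0.96) and Sort1 (0.70) were higher on all arrays, while the adaptor Gga2 (-0.52) and the lysosome-positioning GTPase Arl8b (-0.49, but 0.03 under median centring) were lower. Of 16 genes that control TFEB, most of them through mTORC1, 3 were higher, led by Tsc2 (0.38) and Mlst8 (0.33). Another 2 were lower, Lamtor1 (-0.49) and Lamtor3 (-0.48), with 0.03 and 0.01 under median centring. Both belong to the complex that anchors mTORC1 to the lysosome. The next gene that passed in this list, Lamtor5 of the same complex, was higher (0.20), while Lamtor2 (0.15) and Lamtor4 (0.11) did not pass. Of 18 autophagy genes, 6 were higher, led by Gabarapl1 (0.96), a protein of the autophagosome membrane, and the initiating kinase Ulk1 (0.74), and 1, Wipi2 (-0.42, but 0.08 under median centring), was lower. Among 6 cathepsin inhibitors, the secreted cystatin Cst3 was higher (0.49) and the cystatin Cst6 was lower (-1.41). In these lists the genes called higher or lower passed at a limma adjusted p below 0.01.

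**Figure D4:**
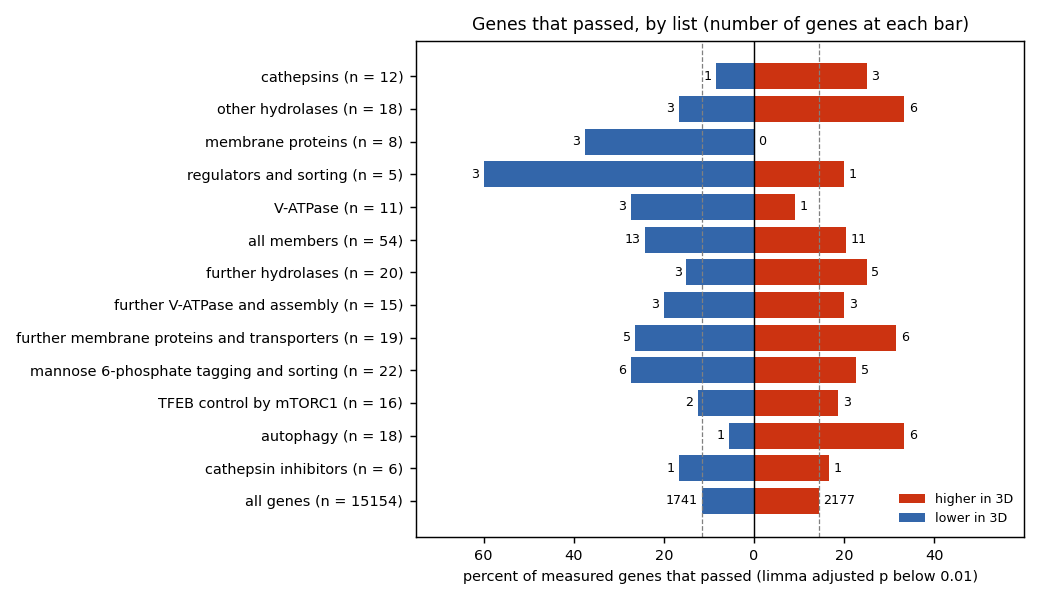
Percent of measured genes that were higher (red, to the right) and lower (blue, to the left) in 3D at a false discovery rate of 0.01, for each class of lysosomal genes, each further pathway list and all genes, with the number of genes at each bar and the shares over all genes dashed (14.4% higher and 11.5% lower). Membrane proteins show 0 higher and 3 lower (1 of them above 0 under median centring), and autophagy genes 6 higher and 1 lower (above 0 under median centring). Under median centring none of the 54 genes passed, and the ratios of bright genes were raised. The dashed shares include genes without signal, and 47.0% of the 8430 genes kept after the filter for signal passed in either direction.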

How the data were processed

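Total RNA of FRT follicles (3D) and monolayers (2D) was hybridized to 5 Agilent 2-colour rat arrays. Per the file headers, the authors' spot intensities are the medians of pixels in each spot and in its surroundings, not normalized, from version 10.7.3.1 of Agilent Feature Extraction. The deposited log10 ratios (Cy5 over Cy3) are of that software's processed signals and were not used as such. Log2 ratios of the processed signals themselves entered as an alternative. The authors' value table holds log2 ratios that they made with limma by normexp, loess and quantiles. All its columns ran 3D over 2D when set against the scanner files (r from 0.995 to 0.998, medians from -0.00639 to 0.00106), and it served as an alternative.

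Median signals were corrected by normexp with an offset of 50, then put through loess on each array and quantile scaling of average intensity across arrays, in R 4.3.3 with limma 3.58.1. The offset compresses the ratios of dim genes. Outlier spots (1.12% to 1.6% per array) were left out, 0 were saturated, and spots of a probe were averaged. Of 30367 probes, 17998 had a symbol in a RefSeq table of GRCr8, matched by accession, while the arrays were designed on rn4. The brightest probe stood for a gene where it had several (2605 genes). The linear model had 1 coefficient over 5 arrays, with the sign of the swapped array turned and that array counted like the others, so SEs and p-values treat 4 cultures as 5 arrays, and p-values of 15154 genes were adjusted by Benjamini-Hochberg (threshold 0.01). An exact sign test over 4 replicate arrays cannot go below 0.125 (two-sided), so only the fit across genes was used. The fit was tested on simulated data.

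Genes named with values on each array are those that passed with 1 sign on all 5 arrays, at most 4 in each direction per class, and the paralogs. In further lists at most 2 in each direction are named. Arsb, Arsa and the other genes named outside this rule were chosen after their values were seen. The member genes and the lists were chosen with earlier results of these data known. Alternatives changed the background correction, signal, normalization, dim-gene filter, probe rule, outlier spots, model and arrays. Protein sequences of paralogs were not used here.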

Additional observations from a re-analysis of the deposited data

Results flagged for a closer look

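For 4 of the 54 genes, 1 of the 4 replicate arrays lay far from the other 3 by Dixon's test, which flags about 1 in 20 groups by chance. Ctsh had a log2 ratio of 3D over 2D of 0.78 on replicate 1, against 1.11 to 1.17 on the other replicates. Psap, which was called higher in 3D, had -0.08 on replicate 1, against 0.40 to 0.49 on the others. Neu1, the lysosomal sialidase, had -0.29 on replicate 1, against -0.14 to -0.11. Gla, which removes galactose from glycolipids, had -0.02 on replicate 4, against 0.21 to 0.26. Replicate 1 was the lowest in 3 of these 4 cases, and a cause was not tested.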

How the results depend on the processing

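Of 16 alternatives, median centring changed most. With it 0 members were higher or lower, hence 0 in each class, and the class medians were 0.53 for other hydrolases, 0.13 for membrane proteins, 0.08 for regulators and sorting and 0.26 for V-ATPase. Under median centring the ratio was 0.01 for Gaa, 0.28 for Gm2a, 0.21 for Tpp1, 0.12 for Scarb2, 0.08 for Mitf, 0.00 for Atp6v0b, 0.20 for Atp6v1c1 and 0.22 for Atp6v1d. With a normexp offset of 0, 6 members were higher and 8 lower (other hydrolases lower 1, regulators higher 0, V-ATPase higher 0 and lower 1), with medians of -0.26 for membrane proteins and -0.39 for regulators, and 2222 of all genes passed. With Agilent processed signals 6 members were higher, regulators higher numbered 0, V-ATPase higher 0 and lower 1, and the medians were -0.43 for regulators and -0.08 for V-ATPase. Without background correction 0 V-ATPase subunits were higher and the median of regulators was -0.35. With the deposited values, cathepsins lower numbered 2 and V-ATPase higher 0, and 49.2% of all calls were higher, against 55.6% in the values reported. With dim genes removed 2 cathepsins were lower, and the medians were 0.10 for cathepsins and -0.09 for V-ATPase. A dye term gave 2 cathepsins lower, 1 membrane protein lower and 2 V-ATPase subunits higher. The median of regulators was -0.20 with the mean of all probes and -0.23 with their median. Without the dye swap array 3 cathepsins and 5 other hydrolases were lower, 1 membrane protein and 2 V-ATPase subunits were higher, and the median of V-ATPase was -0.09. In these settings the cause was not tested. Leaving out 1 replicate at a time gave 8 to 9 members lower, 1 membrane protein lower, 0 to 1 V-ATPase subunits higher and 1 lower. Keeping outlier spots and an intensity trend changed no call among the 24 genes.

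The number of arrays and the lack of separate 2D cultures limit these results. Dim genes such as Ctse and Ctns have ratios compressed by the offset.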
